A study of Mus musculus with 38 samples.

Results

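The genes followed here are 6 of the 31053 gene symbols in the count tables of 38 libraries. They are the type 2 cytokine genes Il4, Il5 and Il13, the neighbouring cytokine gene Il3, the transcription factor gene Gata3 and the IL-4 receptor alpha chain gene Il4ra. They were picked by symbol, for lower levels after dexamethasone (Dex, a synthetic glucocorticoid) in cells of both IL-23R genotypes and for their levels in vivo. The values that chose them are therefore given as descriptions, with no test. All 6 were present in each of the 4 tables.

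The cells were mouse CD4 T cells of a culture type that the labels call Th17Inf, all from C57/B6 mice. In the first experiment, WT or IL-23R KO naive T cells were turned into Th17Inf cells in vitro and kept for 2 days with Dex or without it (control), giving 4 groups of 4 libraries: WT control, WT Dex, KO control and KO Dex. In the second, Th17Inf cells made from mice carrying the 2D2 receptor, a transgenic T cell receptor that recognises the myelin protein MOG, were transferred into WT recipients to induce experimental autoimmune encephalomyelitis, and 2D2+ cells were sorted at peak disease. Donor cells were GR WT or GR cKO (the glucocorticoid receptor gene Nr3c1 conditionally deleted), taken from the CNS with 4 libraries each, or CHD1 WT or CHD1 cKO (the chromatin remodeller gene Chd1), taken from the CNS or the draining lymph nodes (dLN) with 3 WT and 4 cKO libraries in each tissue. The labels give neither the Cre driver of the conditional deletions nor the sex or age of the mice, and the recipients kept their own immune cells. Nothing in the labels says that libraries of a group came from separate animals or cultures, so p-values measure the spread between these libraries, which may be technical.

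IL-4, IL-5 and IL-13 are the signature cytokines of type 2 helper T cells: IL-4 drives the Th2 fate and antibody class switching to IgE, IL-5 supports eosinophils, and IL-13 acts on epithelium and smooth muscle. IL-3, a growth factor for mast cells and basophils, is also made by activated T cells. IL-4 signals through the IL-4 receptor alpha chain, with the common gamma chain, to STAT6, which induces Gata3; GATA3 then binds the shared cytokine locus and opens it. Glucocorticoids act through a nuclear receptor that represses many cytokine genes of activated T cells.

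The 3 Th2 cytokine genes lie together on chromosome 11 (mm10, GENCODE M21 positions). Il4 spans chr11:53602982-53618669 on the minus strand, Il13 chr11:53631324-53634702 on the minus strand and Il5 chr11:53720794-53725106 on the plus strand. Il3 lies farther along at chr11:54265303-54267277 on the minus strand, and its start is 632.6 kb from that of Il13. Gata3 spans chr2:9857078-9890034 (minus strand) and Il4ra chr7:125552120-125579474 (plus strand). The kit does not mark strand, so reads of overlapping antisense genes cannot be told apart: Il5 shares 417 exonic bases with Gm12214, which had at most 30 counts in a library, and Il4ra shares 571 with Gm44876, at most 18 counts.

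The 250 bases before the start of each of the 4 cytokine genes are shown because these genes share the Dex pattern described next. They come from RefSeq on GRCm38.p6, at chr11:53618666-53618915 (Il4, minus strand), chr11:53720544-53720793 (Il5, plus strand), chr11:53634703-53634952 (Il13, minus strand) and chr11:54267280-54267529 (Il3, minus strand), each written 5′ to 3′ along its gene. Capitals mark GATA hexamers (AGATAA and AGATAG, with TGATAA and also TGATAG) and the NFAT core, which is spelled GGAAA, on either strand, so the reverse complements also appear.
Il4: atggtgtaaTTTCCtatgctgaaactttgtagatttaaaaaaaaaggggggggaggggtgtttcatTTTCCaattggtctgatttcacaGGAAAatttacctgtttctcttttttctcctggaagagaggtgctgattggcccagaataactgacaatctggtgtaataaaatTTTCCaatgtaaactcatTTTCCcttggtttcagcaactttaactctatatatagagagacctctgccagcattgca
Il5: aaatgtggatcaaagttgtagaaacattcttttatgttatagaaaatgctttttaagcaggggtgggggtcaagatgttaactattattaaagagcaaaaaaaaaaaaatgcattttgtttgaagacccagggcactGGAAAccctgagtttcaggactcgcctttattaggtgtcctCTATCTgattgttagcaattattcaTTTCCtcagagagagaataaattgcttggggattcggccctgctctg
Il13: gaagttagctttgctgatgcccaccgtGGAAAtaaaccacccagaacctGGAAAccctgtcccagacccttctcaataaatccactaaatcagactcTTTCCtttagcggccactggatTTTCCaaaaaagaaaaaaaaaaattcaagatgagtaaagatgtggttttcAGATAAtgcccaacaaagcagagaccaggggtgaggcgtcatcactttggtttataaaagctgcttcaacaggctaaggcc
Il3: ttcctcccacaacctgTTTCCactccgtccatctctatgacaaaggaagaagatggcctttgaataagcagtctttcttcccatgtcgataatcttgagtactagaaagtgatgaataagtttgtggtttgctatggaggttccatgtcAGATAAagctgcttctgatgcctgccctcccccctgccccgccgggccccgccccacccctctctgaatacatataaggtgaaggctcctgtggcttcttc
The Il5 window held 1 GATA hexamer, written CTATCT, 72 to 67 bases before the start. Il13 held AGATAA at 81 to 76 bases and Il3 held AGATAA at 101 to 96 bases before the start, while the Il4 window held none of these hexamers. Of all 32851 RefSeq windows of this length, 26.5% held a GATA hexamer. The NFAT core occurred 5 times in the Il4 window, 4 times in Il13, 2 times in Il5 and 1 time in Il3; 55.6% of all windows held it, and 21.4% held 2 or more. The AP-1 site TGACTCA (4.46% of windows) and the glucocorticoid receptor core AGAACA (16.1%) were in none of the 6 genes' windows on either strand. The windows of Gata3 (chr2:9878601-9878850) and Il4ra (chr7:125552021-125552270) are not shown. They end at RefSeq starts that lie inside the GENCODE spans given above, so they are not the bases before those spans. These letter matches describe the windows and are not binding sites.

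Libraries held 3320586 to 4732419 counts in vitro, 6281769 to 9159671 in the GR experiment, 4911109 to 6262849 in CHD1 CNS and 3148634 to 5158450 in CHD1 dLN. All 8 T cell markers had counts in every group. Nr3c1 was at 11.1 to 18.0 CPM (counts scaled to a common library total) in GR WT and 5.25 to 5.68 in GR cKO. Chd1 overlapped between libraries labelled CHD1 WT and CHD1 cKO in the CNS (4.24 to 6.14 and 3.56 to 6.87 CPM) and in the dLN (4.27 to 5.47 and 2.28 to 6.04); the labels do not give the deleted part, so a gene total does not check this label. Il23r did not overlap between the genotypes within either state: it was at 6.33 to 8.66 CPM in WT control and 2.25 to 6.22 in KO control, and at 5.57 to 16.6 in WT Dex and 1.12 to 2.11 in KO Dex. The glucocorticoid target Tsc22d3 was at 21.8 to 31.1 CPM in WT control and 56.1 to 87.5 in WT Dex, and at 17.1 to 34.6 in KO control and 160.0 to 182.0 in KO Dex. Fkbp5, also a glucocorticoid target, did not follow it in KO cells when scaled by total counts alone. Its log2 fold change with Dex was then 0.94 in WT and -0.20 in KO cells. The median of all genes in KO cells was -0.45 on that scaling, so the sign of the KO value may depend on the scaling. In vitro, Nr3c1 was at 2.35 to 4.44 CPM in WT control and 3.08 to 3.69 in WT Dex. It was at 3.14 to 3.93 CPM in KO control and 6.72 to 8.69 in KO Dex. The 4 KO Dex libraries stand apart: 31.2% to 38.3% of their counts fell on repeat and ribosomal RNA features, against 14.1% to 26.0% in the other 12, and 0.359% to 0.447% on mitochondrial genes, against 1.46% to 2.26%. Every Dex value in KO cells rests on those 4 libraries.

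**Figure D1:**
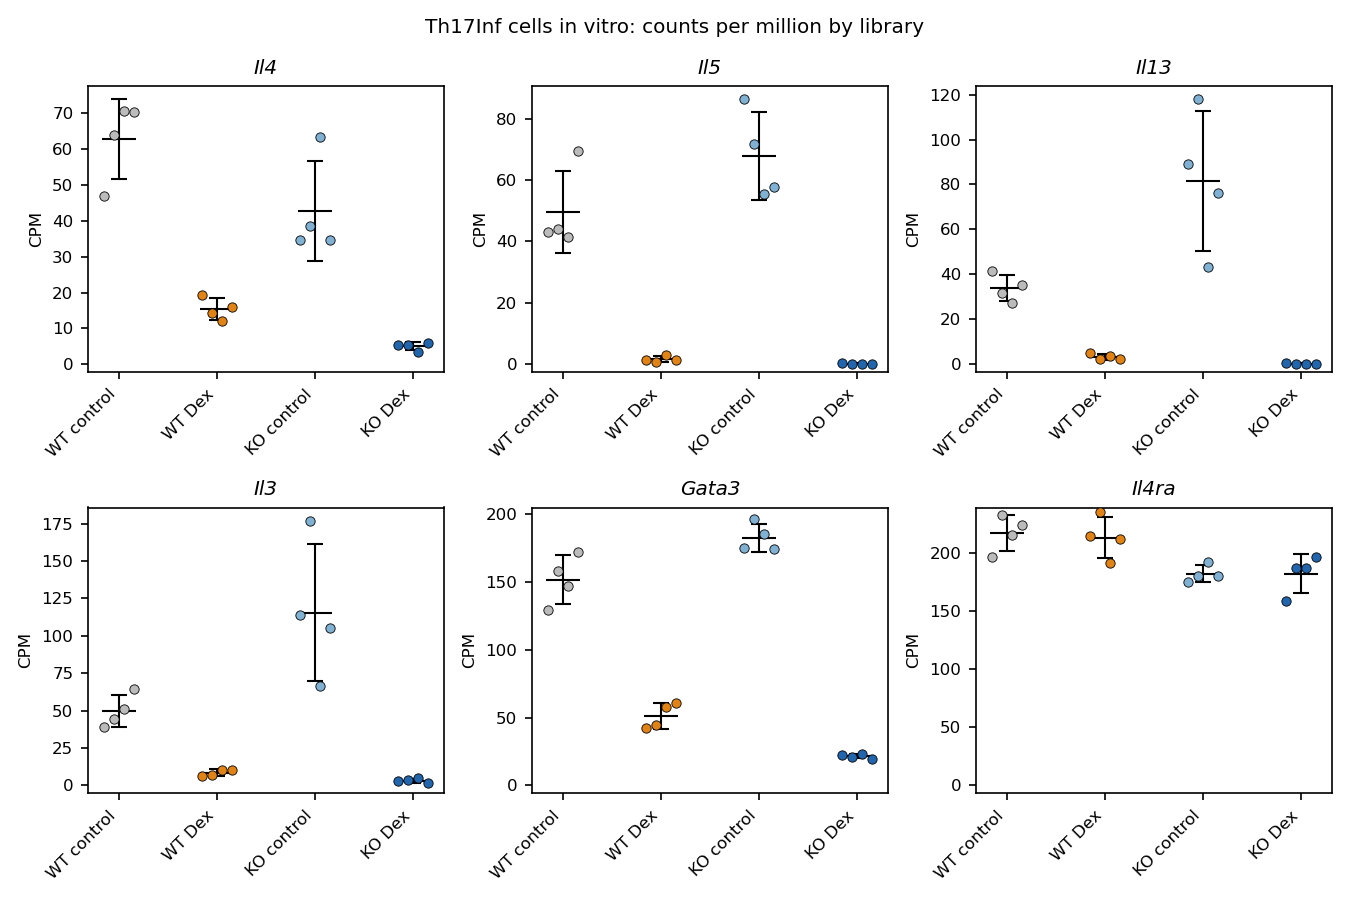
Level of each gene in the 16 in vitro libraries, in CPM on a linear axis that starts at 0; each point is a library, and bars give the mean ± SD of 4 libraries. All 4 libraries of each Dex group lie below all 4 of their control group for Il4, Il5, Il13, Il3 and Gata3, while the 4 groups of Il4ra lie between 158.0 and 235.0 CPM.

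Without Dex, Th17Inf cells of both genotypes carried transcripts of all 4 cytokines. Per kb of exon, the scale on which genes can be compared, the order of mean levels in WT control was Il3 at 79.1 CPM per kb, Il4 at 51.3, Gata3 at 38.2, Il4ra at 36.1, Il5 at 32.2 and Il13 at 28.1. Il3 stood above Il4 by more than both SDs, and from Il4 downward neighbours in that order did not differ beyond their SDs. Markers of other type 2 cells were mixed in vitro. Cpa3, Mcpt8, Fcer1a and Gata2, of mast cells and basophils, had no count in any of the 16 libraries, nor did Epx, of eosinophils. Other markers of these cells had counts. In WT control the 9 mast cell and basophil markers summed to 0.432 to 1.75 CPM, with Kit the highest. The 4 eosinophil markers summed there to 5.7 to 9.15 CPM, with Siglecf the highest.

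With Dex, Il4, Il5, Il13, Il3 and Gata3 were all lower in both genotypes and Il4ra was not. At least 2-fold lower values, on edgeR's log2 fold change with TMM scaling (which sets libraries on a common scale through the bulk of genes), were found for 5 of the 6 genes in WT cells and in KO cells. Among all 10813 genes in the fit, 1.57% were at least 2-fold lower in WT cells and 11.4% in KO cells; the 6 genes were chosen on this contrast, so nothing is read from their count. The share of all genes whose groups do not overlap is not given here. Groups without overlap are therefore only described, in this contrast and in those below. Errors of log2 fold changes are standard errors, taken as the fold change divided by the square root of the F statistic.

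Il4 was at 46.9, 64.0, 70.6 and 70.4 CPM in WT control and at 19.4, 14.3, 12.0 and 15.9 in WT Dex. In KO cells it was at 34.7, 38.5, 63.5 and 34.6 CPM without Dex and at 5.38, 5.42, 3.43 and 5.83 with it. No Dex library reached a control library in either genotype. The log2 fold change was -1.92 ± 0.22 in WT cells, 3.78-fold lower, and -2.63 ± 0.26 in KO cells, 6.17-fold lower.

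Il5 was at 43.2, 44.0, 41.5 and 69.4 CPM in WT control and at 1.29, 0.692, 3.0 and 1.1 in WT Dex. It was at 86.4, 71.9, 55.4 and 57.9 CPM in KO control, and in KO Dex a single count was found over the 4 libraries, in replicate 5 (0.224 CPM). Control and Dex libraries of this eosinophil growth factor gene lay far apart in both genotypes. In WT cells the log2 fold change was -4.86 ± 0.32, 29.1-fold lower. In KO cells 1116 control counts stood against 1, a ratio per total count of 1140 (95% exact interval 205 to 45200). Such intervals cover counting error only, and reads without molecular identifiers are not independent molecules.

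Il13 was at 41.4, 31.7, 27.2 and 35.0 CPM in WT control and at 4.75, 2.08, 3.43 and 1.98 in WT Dex. It was at 89.2, 118.0, 43.0 and 76.1 CPM in KO control, with 2 counts over the KO Dex libraries, both in replicate 5 (0.448 CPM). As for Il5, 3 of the 4 KO Dex libraries held no count, where 3 counts would be 0.634 to 0.903 CPM across the in vitro libraries. The log2 fold change in WT cells was -3.33 ± 0.33, 10.1-fold lower. In KO cells 1366 counts stood against 2, a ratio of 700.0 (193 to 5780).

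Il3 was at 39.2, 44.4, 51.2 and 64.3 CPM in WT control and at 6.26, 6.69, 10.5 and 10.4 in WT Dex. In KO cells it was at 114.0, 177.0, 66.3 and 105.0 CPM without Dex and at 2.69, 3.31, 4.8 and 1.3 with it. The Il3 groups did not overlap in either genotype. The log2 fold change was -2.43 ± 0.29 in WT cells, 5.39-fold lower, and -4.78 ± 0.34 in KO cells, 27.5-fold lower.

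Gata3, the gene of the factor that sets up the Th2 locus, was at 129.0, 158.0, 147.0 and 172.0 CPM in WT control and at 41.9, 44.3, 58.1 and 60.8 in WT Dex. In KO cells it was at 175.0, 196.0, 185.0 and 174.0 CPM without Dex and at 22.2, 21.1, 23.3 and 19.7 with it. The KO libraries were the tighter set in both states, and no library of one state reached the other. The log2 fold change was -1.44 ± 0.13 in WT cells, 2.72-fold lower, and -2.61 ± 0.14 in KO cells, 6.12-fold lower.

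Il4ra, the receptor, was at 196.0, 232.0, 215.0 and 224.0 CPM in WT control and at 214.0, 235.0, 191.0 and 212.0 in WT Dex. In KO cells it was at 175.0, 180.0, 192.0 and 180.0 CPM without Dex and at 158.0, 187.0, 187.0 and 196.0 with it. In CPM, control and Dex libraries overlapped in both genotypes, which goes against the repression for which the genes were picked. In TMM-scaled CPM they overlapped in WT cells only. In KO cells the TMM-scaled Dex libraries (213.0 to 243.0) all lay above the control libraries (153.0 to 184.0), which is not repression either. With TMM scaling the log2 fold change was 0.09 ± 0.08 in WT cells and 0.46 ± 0.08 in KO cells; scaled by total counts alone it was -0.02 ± 0.08 and 0.00 ± 0.08. The KO value depends on the scaling, which in KO cells moves the median of all genes from 0.01 to -0.45.

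For the other 5 genes the direction was the same under both scalings. By total counts alone, the log2 fold changes in WT cells were -2.03 for Il4, -1.57 for Gata3, -2.55 for Il3, -3.45 for Il13 and -4.98 for Il5, and in KO cells -3.08 for Il4, -3.08 for Gata3 and -5.26 for Il3.

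By fitted value, the Dex difference was larger in KO than in WT cells for the 3 lowered genes with enough counts. The difference of the 2 log2 fold changes (KO minus WT) was -2.35 ± 0.48 for Il3, -1.17 ± 0.19 for Gata3 and -0.71 ± 0.35 for Il4, and 0.37 ± 0.11 for Il4ra, where total-count scaling gave 0.03. Il5 and Il13 hold too few KO Dex counts for a fitted value; their count ratios in WT cells were 31.9 (21.9 to 48.2) and 11 (8.32 to 14.7), below the intervals of the KO ratios. Between the 2 Dex groups, KO was below WT by a log2 difference of -1.30 ± 0.28 for Il4, -0.94 ± 0.15 for Gata3 and -1.19 ± 0.42 for Il3. These contrasts also belong to the choice of the genes and were not tested, and they rest on the KO Dex libraries with their other repeat and mitochondrial shares, whose part in the result was not tested. The 4 eosinophil markers summed to 8.42 to 9.83 CPM in KO control and 0.224 to 0.432 in KO Dex, with Epx at 0 in both, and the 9 mast cell and basophil markers to 0 to 1.69 and 6.95 to 12.6 CPM, with Cpa3, Mcpt8, Fcer1a and Gata2 at 0 in both. Siglecf was the highest eosinophil marker in KO control and was at 0 in KO Dex. Kit was the highest mast cell and basophil marker in both groups, and 4 of the 9 had a count in KO Dex. In WT cells the eosinophil sum was 5.7 to 9.15 CPM in control and 1.51 to 2.57 with Dex. The 8 T cell markers summed to 3330.0 to 3820.0 CPM in KO control and 1790.0 to 2190.0 in KO Dex, and to 3120.0 to 3460.0 in WT control and 2760.0 to 3080.0 in WT Dex. The part of these marker differences was not tested.

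Whether loss of IL-23R alters these genes without Dex was tested, since the choice of genes did not compare the genotypes. The same control libraries do enter the Dex contrasts, where a high KO control level enlarges the fall for which genes were picked. The test is therefore not independent of the choice, and how far the choice favours higher KO values was not tested. In IL-23R KO cells Il13 and Il3 were higher, and the other 4 genes did not pass the test (edgeR's quasi-likelihood test, Benjamini-Hochberg adjusted p below 0.05 over 10813 genes). Il13 was at 33.8 ± 5.97 CPM in WT control and 81.7 ± 31.3 in KO control (SD, n = 4 each), a log2 fold change of 1.22 ± 0.23, 2.34-fold, with an edgeR adjusted p of 0.0188. Il3 was at 49.8 ± 10.8 CPM in WT and 115.0 ± 45.7 in KO, a log2 fold change of 1.17 ± 0.24, 2.24-fold, with an edgeR adjusted p of 0.0274. Every KO library lay above every WT library for both genes, and KO replicate 6 was highest and replicate 7 lowest for both. In CPM, 2 genes that did not pass were also without overlap. Gata3 was at 129.0 to 172.0 in WT and 174.0 to 196.0 in KO, and Il4ra at 196.0 to 232.0 and 175.0 to 192.0. Scaled by TMM, Gata3 and Il4ra did overlap, and Il13 and Il3 did not. Nothing is read from these separations. The background was 0.222% of genes called higher and 0.462% lower (24 and 50 genes, or 20 and 25 scaled by total counts).

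Il4 and Il5, the neighbours of Il13 on the chromosome, did not share that call. Il4 had a log2 fold change of -0.59 ± 0.20 (edgeR adjusted p = 0.294) and Il5 of 0.42 ± 0.20 (0.521). Gata3 had 0.23 ± 0.12 (edgeR adjusted p = 0.6) and Il4ra -0.29 ± 0.08 (0.106); DESeq2 did call Il4ra lower (0.0131). Il4 was highest in KO replicate 7, the library in which Il13 and Il3 were lowest.

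The calls of Il13 and Il3 depend on single libraries and on the libraries that share the fit. With only the 8 control libraries in the fit, and so without the KO Dex libraries, their edgeR adjusted p were 0.0778 and 0.0879. Leaving out any 1 of the 8 libraries other than KO replicate 7 ended at least 1 of the calls: Il13 remained without WT replicate 1 (0.0343) and Il3 without WT replicate 4 (0.0379), and neither remained without WT replicate 2 or 3 or KO replicate 5, 6 or 8. Without KO replicate 7, Il13 (edgeR adjusted p = 0.00239), Il3 (0.00648), Il4 (lower, -0.88, 0.0125) and Il4ra (lower, -0.35, 0.0432) all passed. That library had the lowest total of the 8, at 3558967 counts. It also had the highest share of repeat and ribosomal RNA features, 22.7% against 14.1% to 20.3% in the others. The part of these traits was not tested.

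**Figure D2:**
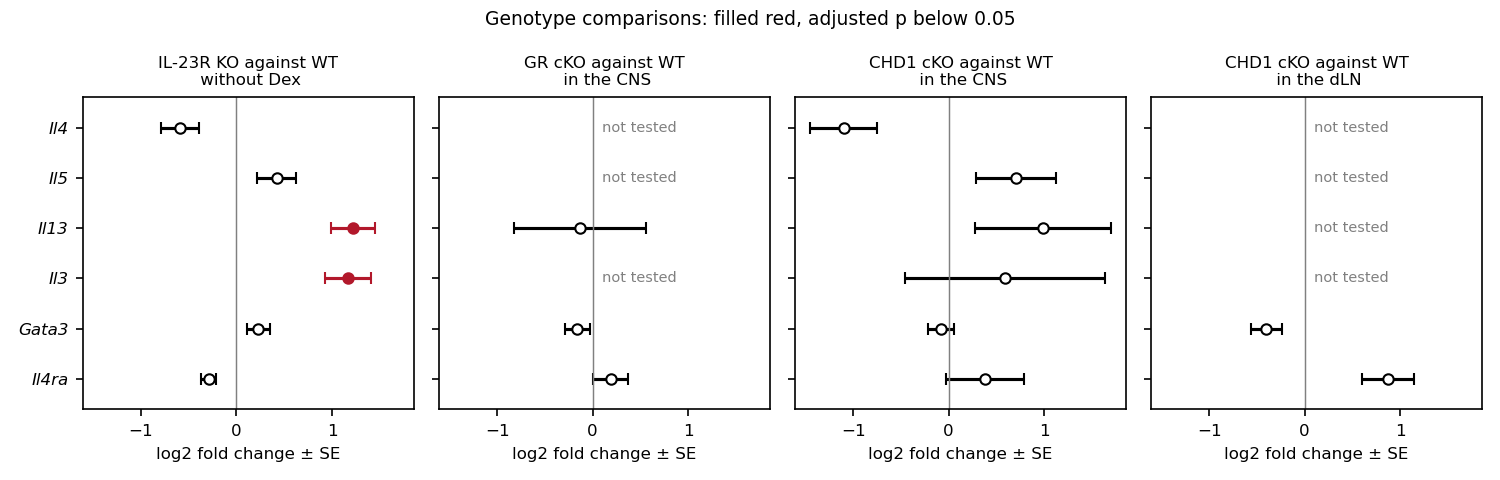
Log2 fold change of each gene in the 4 genotype comparisons that were tested, as points with bars of 1 standard error; filled red points passed an adjusted p of 0.05. Il13 (1.22) and Il3 (1.17) in IL-23R KO against WT without Dex are the only filled points, and genes below the filter on low counts are left out.

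Other genes of the pathway were compared between the same 2 groups. A Th2 pathway list of 44 genes held receptor chains, signal transducers, transcription factors for Th2 genes, and surface and secreted Th2 genes. It also held 4 opposing transcription factors, Tbx21 among them, so its counts do not give a Th2 direction. Il9 was counted both in this list and among the cytokines of other T cell types. Of its 29 tested genes, the pathway list had none higher and 1 lower: Ets1, a transcription factor of T cells, with a log2 fold change of -0.49 ± 0.10 (edgeR adjusted p = 0.0253). That call was lost when scaled by total counts (0.063), where Ecm1 passed instead (-1.09 ± 0.23, 0.0403), and with only the 8 control libraries no gene of the list passed. The median of the list was 0.00, as that of all genes. Among 9 tested cytokines of other T cell types, Il17f, a Th17 cytokine, was the only one to pass, lower by -4.20 ± 0.61 (edgeR adjusted p = 0.00204). None of 11 tested neighbours of the cytokine locus passed. The 6 Th17 markers summed to 101.0 to 363.0 CPM in WT control and 33.4 to 55.9 in KO control, and their part in the Il13 and Il3 difference was not tested.

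In vivo, the 4 cytokine genes were at lower mean levels than in the in vitro control groups. In the CNS, the means of Il4, Il5 and Il13 were higher in both CHD1 groups than in both GR groups, while Il3 overlapped between the experiments, at 2.61 CPM in CHD1 WT and 2.65 in GR cKO. Gata3 and Il4ra were found in every library. The tables come from separate experiments, so levels across them are set side by side with no test, and in bulk RNA fewer cells of a type and less RNA per cell cannot be told apart. Per kb in the CNS, CHD1 WT held Gata3 at 16.8 CPM per kb, Il4 at 13.7, Il4ra at 9.48, Il13 at 8.35, Il3 at 4.16 and Il5 at 3.88. GR WT held Gata3 at 9.98 CPM per kb and Il4ra at 6.3, with the 4 cytokines between 0.41 and 1.45.

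The lymph node end of that range was at the limit of detection. CHD1 WT dLN held Gata3 at 9.96 CPM per kb, Il4ra at 6.75, Il4 at 0.84 and Il13 at 0.382, and no count of Il5 or Il3. A count of 0 allows 3 counts, which is 0.582 to 0.953 CPM in the dLN libraries.

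**Figure D3:**
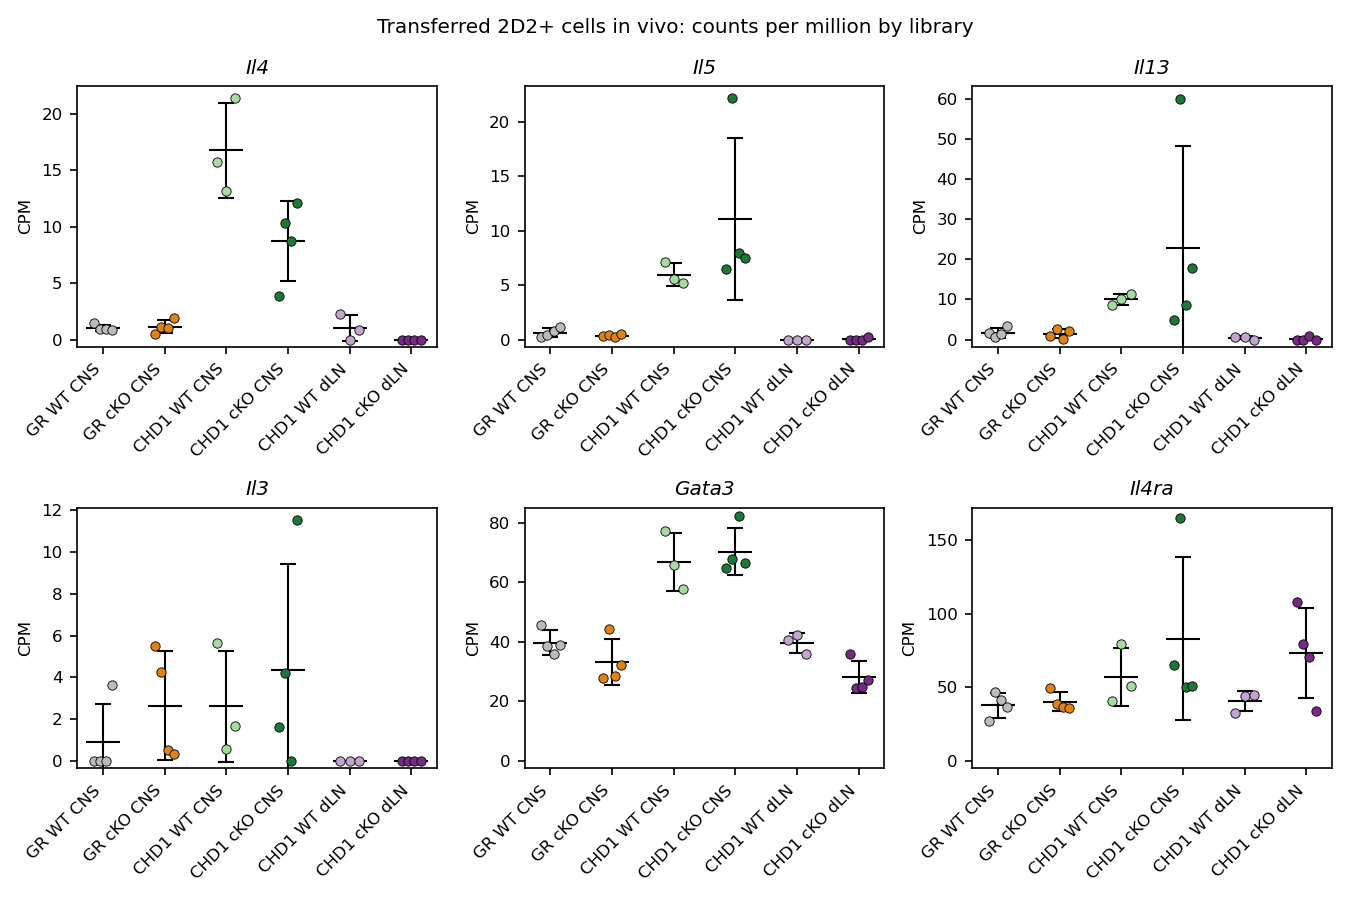
Level of each gene in the 22 in vivo libraries, in CPM on linear axes; each point is a library, and bars give the mean ± SD of 3 or 4 libraries, cut where they leave the axis. CHD1 cKO CNS replicate 2 is the high point for Il5 (22.2), Il13 (60.0) and Il4ra (165.0), and the dLN groups lie at or near 0 for the 4 cytokines.

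The GR experiment asks whether the receptor through which Dex acts alters these genes in T cells of the inflamed CNS. No difference passed the test for any of the 3 genes with enough counts. Il13 was at 1.64, 0.515, 1.27 and 3.37 CPM in GR WT and at 0.917, 2.61, 0.132 and 2.23 in GR cKO, a log2 fold change of -0.13 ± 0.69 (edgeR adjusted p = 0.963). Gata3 was at 45.6, 38.6, 35.8 and 38.8 CPM in GR WT and at 27.8, 44.4, 28.7 and 32.3 in GR cKO, -0.16 ± 0.13 (0.693). Il4ra was at 26.9, 46.7, 41.0 and 36.6 CPM in GR WT and at 49.7, 38.8, 36.9 and 35.8 in GR cKO, 0.19 ± 0.18 (0.743). The groups overlapped for each of these genes.

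Il4, Il5 and Il3 were below the filter on low counts. Il4 was at 0.842 to 1.42 CPM in GR WT and 0.459 to 1.91 in GR cKO, and Il5 at 0.218 to 1.12 and 0.264 to 0.478. Il3 was found in 1 of 4 GR WT libraries, at 3.65 CPM, and in all GR cKO libraries, at 0.318 to 5.5 CPM. A share of 0% of the 11148 genes in the fit passed, 0 genes in all, with 1226 at an unadjusted p below 0.05 and 115 called by DESeq2. Of 34 tested Th2 pathway genes none passed, with 10 at an unadjusted p below 0.05; Il1rl1, which encodes the IL-33 receptor of Th2 cells, had -1.06 ± 0.33 (edgeR adjusted p = 0.307). Macrophage and microglia markers summed to 1560.0 to 4870.0 CPM in GR WT and 3020.0 to 5900.0 in GR cKO, with all 10 markers present in both.

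In the CNS of the CHD1 experiment, no gene of the 6 passed, against 1 of 11157 genes (0.00896%) called in all, 1326 at an unadjusted p below 0.05 and 181 called by DESeq2. Il4 came nearest: it was at 15.7, 13.2 and 21.4 CPM in CHD1 WT and at 3.87, 10.3, 8.71 and 12.1 in libraries labelled CHD1 cKO. Those groups did not overlap, and the log2 fold change was -1.10 ± 0.35, with an edgeR p of 0.0113 before adjustment and 0.292 after it.

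Il5 was at 7.16, 5.58 and 5.17 CPM in CHD1 WT CNS and at 6.52, 22.2, 8.0 and 7.5 in cKO, 0.71 ± 0.42 (edgeR adjusted p = 0.53). Il13 was at 8.69, 10 and 11.4 CPM in WT and at 4.89, 60.0, 8.54 and 17.7 in cKO, 0.99 ± 0.71 (0.614). Il4ra was at 40.9, 79.2 and 50.5 CPM in WT and at 65.2, 165.0, 50.1 and 50.9 in cKO, 0.38 ± 0.41 (0.751). For all 3 of these genes cKO replicate 2 was the highest library; without it the log2 fold change was -0.08 for Il13 and -0.18 for Il4ra, the opposite direction. That library also had the lowest T cell marker sum of its group (18100.0 CPM, the others 28800.0, 42000.0 and 33400.0), the lowest Th17 marker sum (19.1, the others 26.3 to 53.3) and the highest B cell marker sum (119.0, the others 81.8 to 101.0). Its macrophage and microglia marker sum was 4360.0 CPM, within the 2730.0 to 5370.0 of the group. The part of these differences in the result was not tested.

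Il3 was at 5.62, 0.558 and 1.66 CPM in CHD1 WT CNS and at 1.63, 4.2, 0 and 11.5 in cKO, 0.59 ± 1.05 (edgeR adjusted p = 0.866). Gata3 was at 77.2, 66.0 and 57.7 CPM in WT and at 65.0, 67.8, 82.2 and 66.4 in cKO, -0.08 ± 0.14 (0.859), and 0.07 scaled by total counts. Both genes overlapped between the groups. Of 35 tested Th2 pathway genes none passed, with 9 at an unadjusted p below 0.05; Maf, a factor that binds the Il4 promoter, had -1.04 ± 0.30 (edgeR adjusted p = 0.269).

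In the dLN only Gata3 and Il4ra passed the filter on low counts, and neither passed the test, against 7 of 9803 genes (0.0714%) called. Of those 9803 genes, 1971 were at an unadjusted p below 0.05, and DESeq2 called 323 genes. Scaling by total counts gave 117 higher and 220 lower calls in place of 3 and 4, and neither gene among them. Gata3 was at 40.7, 42.2 and 35.9 CPM in CHD1 WT and at 35.9, 24.4, 25.0 and 27.1 in cKO, a log2 fold change of -0.40 ± 0.16 with an edgeR p of 0.0296 before adjustment and 0.2 after it. Il4ra was at 32.8, 43.8 and 44.9 CPM in WT and at 108.0, 79.3, 70.5 and 33.9 in cKO, 0.87 ± 0.27, with 0.0093 before adjustment and 0.132 after it. The first 3 Il4ra values of the cKO group lay above every WT library, and replicate 4 lay among them; without replicate 4, Il4ra passed (edgeR adjusted p = 0.0117). B cell marker sums were also above every WT library in the first 3 cKO libraries alone: 249.0, 286.0, 241.0 and 106.0 CPM in cKO against 119.0, 99.4 and 145.0 in WT. T cell marker sums were 7510.0 to 16700.0 CPM in cKO and 18900.0 to 22200.0 in WT. The part of these markers in the Il4ra and Gata3 values was not tested.

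The 4 cytokines were nearly absent from the nodes. Il4 had 13 counts over the 3 CHD1 WT dLN libraries and none over the 4 cKO libraries. Il13 had 5 and 4 counts and Il5 had 0 and 1, while Il3 had none in either genotype. Of 27 tested Th2 pathway genes none passed, with 10 at an unadjusted p below 0.05, beside 1971 of all 9803 genes. Scaled by total counts, 3 were lower: Tbx21 (-1.21, edgeR adjusted p = 0.022), Rbpj (-1.11, 0.0142) and Ccr8 (-1.54, 0.0285). DESeq2 called 2 lower.

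Cells from the CNS were set beside cells from the nodes of the same genotype, as a description for the 6 genes. All 4 cytokines were higher in the CNS. In CHD1 WT cells the count ratio per total count of CNS over dLN was 15.3 (8.78 to 29.0) for Il4 and 23.8 (9.98 to 74.1) for Il13, at least 23.7-fold higher for Il5 and at least 10.7-fold higher for Il3, the last 2 against 3 counts over the dLN group. In cKO cells it was at least 53.3-fold higher for Il4, at least 27.5-fold higher for Il3, 194.0 (34.4 to 7680) for Il5 and 100 (38.9 to 370.0) for Il13. Gata3 and Il4ra differed far less, with ratios of 1.71 and 1.39 in CHD1 WT and 2.51 and 1.15 in cKO.

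With TMM scaling the CNS minus dLN log2 fold change in CHD1 WT cells was 0.38 ± 0.16 for Gata3 and 0.09 ± 0.42 for Il4ra. In the dLN libraries 42.2% to 59.9% of counts came from repeat and ribosomal RNA features. Macrophage and microglia markers summed to 2030.0 to 3020.0 CPM in CHD1 WT CNS and 2730.0 to 5370.0 in cKO CNS, against 4.14 to 59.3 CPM in the dLN, and the part of these cells in the result was not tested. The 4 eosinophil markers also moved with tissue, at 7.56 to 15.2 CPM in CHD1 WT CNS and 7.19 to 16.1 in cKO CNS against 0.427 to 0.745 and 0.549 to 0.827 in the dLN; Siglecf was the highest of them in the CNS, and Epx was at 0 in cKO CNS and WT dLN. The 9 mast cell and basophil markers summed to 0 to 1.11 CPM in WT CNS (3 markers with a count) and 1.78 to 5.7 in cKO CNS (4 markers), against 0 to 0.214 and 0 to 3.02 in the dLN (1 and 4 markers). The part of these markers' cells was not tested either. Tissue and count table cannot be told apart, since each tissue has a table of its own.

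The wider Th2 pathway was tested between the CNS and the dLN of CHD1 WT cells. Of 34 tested genes 15 were higher and 1 was lower in the CNS, with a median log2 fold change of 0.76 against -0.01 for all genes; the background was 11.8% of genes higher and 4.93% lower. Among the 15 was 1 opposing transcription factor. Scaling by total counts moved the median of all genes to 0.36 and gave 20 higher and none lower in the list (2527 and 131 among all genes, in place of 1367 and 571). Of 5 tested receptor chains 4 were higher, among them Csf2rb2 (5.26 ± 0.58) and Csf2rb (3.11), beta chains of the IL-3 and IL-5 receptor family that myeloid cells also carry. Among factors and surface genes, Junb (2.92 ± 0.18, edgeR adjusted p = 7.47e-08), Maf (2.51 ± 0.41, 0.000661) and the chemokine receptor gene Ccr8 (3.44 ± 0.40, 3.12e-05) were higher. The macrophage and microglia marker sums given above were also higher in the CNS. Their part in the differences of the receptor chains, the factors and the surface genes was not tested.

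The same pathway list was tested for Dex, which for these other genes asks how far they moved beside Gata3 and the cytokines. In WT cells 4 of 29 rose and 7 fell, against 3.88% and 4.2% of all genes; scaled by total counts, 1 rose and 8 fell. The genes that fell included Il9, the cytokine gene of Th9 cells (-5.62 ± 1.15, edgeR adjusted p = 0.00522), Tbx21, which encodes the Th1 factor T-bet (-1.66 ± 0.32, 0.00373), Ccr8 (-0.82 ± 0.15, 0.00279) and Batf, an AP-1 family factor (-0.57 ± 0.07, 0.000124). Ecm1, a secreted protein of Th2 cells, rose by 1.44 ± 0.24 (edgeR adjusted p = 0.00138). Median log2 fold changes were -0.04 for the list and 0.01 for all genes. Over all genes 420 rose and 454 fell, or 242 and 684 scaled by total counts, with the median at -0.10.

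In KO cells 9 of the 29 rose and 9 fell, against 27.3% and 27.4% of all genes; scaled by total counts, 6 rose and 15 fell (1363 and 5240 of all genes, in place of 2950 and 2961). Tbx21 (-2.74 ± 0.36, edgeR adjusted p = 5.97e-06), Ccr8 (-1.65 ± 0.16, 2.02e-07), Batf (-1.28 ± 0.08, 1.07e-09) and Gfi1, a repressor that supports Th2 cell growth (-1.47 ± 0.33, 0.00112), fell. Ecm1 rose by 3.10 ± 0.26 (edgeR adjusted p = 4.42e-08). Stat6, the transducer of the IL-4 receptor, rose by 0.51 (1.54e-05) with TMM scaling and had 0.04 (0.722) with total counts alone, as Il4ra did. These values rest on the KO Dex libraries that stand apart.

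The change differed between the genotypes for 8 genes of the list in the higher direction in KO and 3 in the lower one, against 15.0% and 17.2% of all genes; scaled by total counts the numbers were 5 and 10 (767 and 3445 of all genes, in place of 1623 and 1864, with the median at -0.37). Batf (-0.71 ± 0.11, edgeR adjusted p = 9.38e-05) and Ccr8 (-0.83 ± 0.22, 0.00797) were more strongly lowered in KO cells, and Ecm1 was more strongly raised (1.66 ± 0.34, 0.00141).

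**Figure D4:**
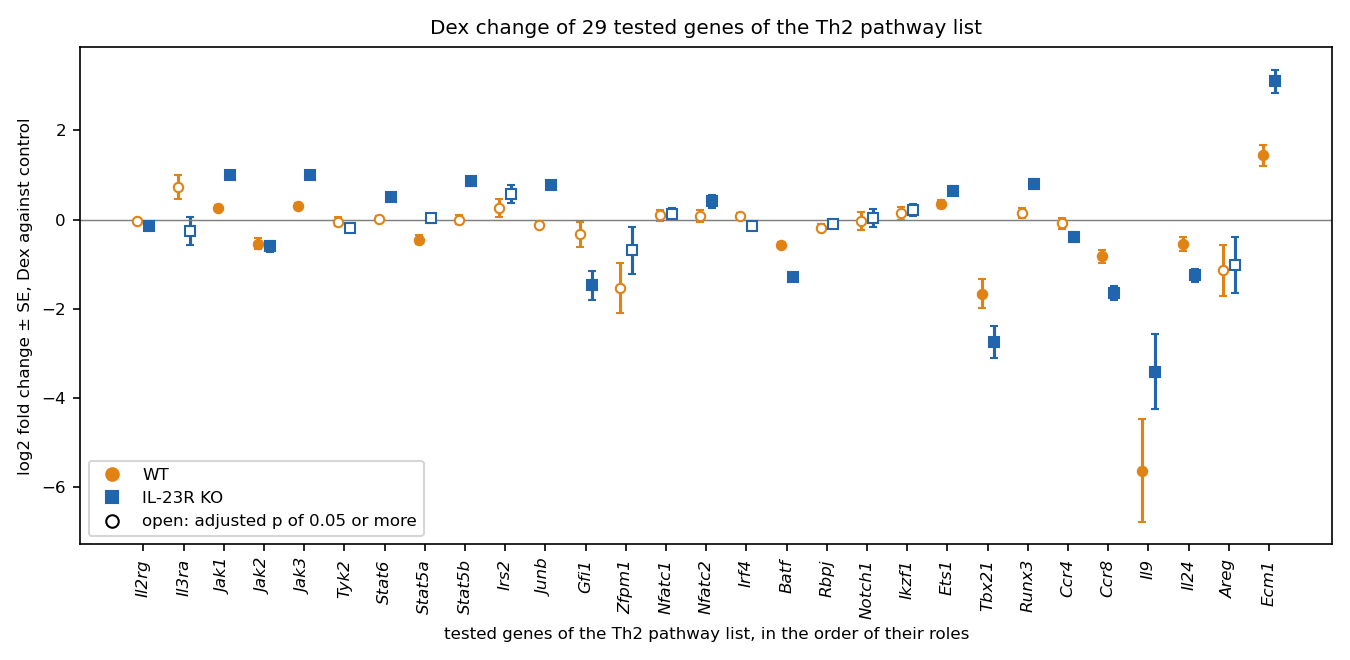
Log2 fold change with Dex, ± SE, for each of the 29 tested Th2 pathway genes in the order of their roles, in WT (circles) and IL-23R KO cells (squares) with TMM scaling; open symbols did not pass an adjusted p of 0.05. Tbx21, Ccr8 and Batf lie below 0 in both genotypes, and Ecm1 (1.44 in WT, 3.10 in KO) lies above it.

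Cytokine genes of other T cell types were tested in the same contrasts. In WT cells 4 of 9 fell and none rose, against 4.2% and 3.88% of all genes: Il2, the T cell growth factor gene (-2.52 ± 0.37, edgeR adjusted p = 0.000388), Il9, Tnf (-0.66) and Lta (-0.43). In KO cells Il2 (-4.71), Ifng (212 counts in control, 3 with Dex), Il17a (-3.69) and Il9 (-3.41) fell, while Tnf (0.66) and Lta (0.83) rose, 4 and 2 of 9 against 27.4% and 27.3% of all genes; Tnf did not pass when scaled by total counts. Csf2, a cytokine gene beside Il3, was at 0 to 0.469 CPM in all 16 in vitro libraries and was below the filter on low counts.

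Genes between and beside the cytokine genes on chromosome 11 were tested for Dex as well. In WT cells 2 of 11 tested neighbours fell and none rose, against 4.2% and 3.88% of all genes: Rad50, a DNA repair gene that lies between Il13 and Il5 and holds the locus control region (-0.97 ± 0.17, edgeR adjusted p = 0.00185), and Uqcrq, a mitochondrial respiratory chain gene (-0.35, 0.0104). In KO cells 4 of the 11 fell and 3 rose, near the 27.4% and 27.3% of all genes, or 5 and 2 scaled by total counts. Acsl6, a fatty acid activating enzyme gene on the far side of Il3, fell by 2.03 ± 0.38 on the log2 scale (edgeR adjusted p = 0.000262) and Rad50 by 1.46 ± 0.18 (3.22e-06), while P4ha2, a collagen hydroxylase gene between Il5 and Il3, rose by 1.58 ± 0.12 (1.89e-08). The median of the 11 was -0.27 in WT and -0.14 in KO cells, against 0.01 for all genes.

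**Figure D5:**
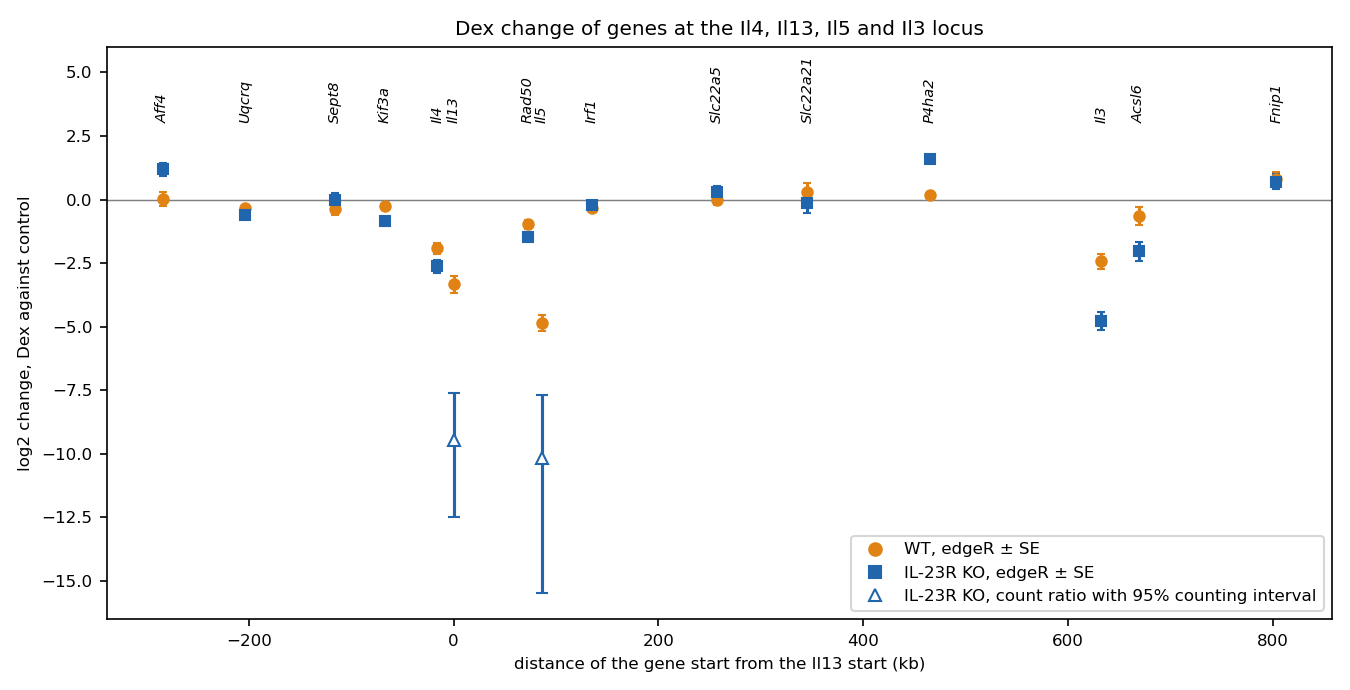
Log2 fold change with Dex against distance in kb from the start of Il13, for genes of the chromosome 11 locus, in WT (circles) and IL-23R KO cells (squares), with bars of 1 standard error; triangles give the KO count ratios of Il5 and Il13 with their 95% counting intervals. Rad50, at 72.6 kb, lies below 0 in both, and P4ha2, at 465.4 kb, lies above 0 in KO cells.

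As a description, genes with the most similar pattern over the 16 in vitro libraries were named by Pearson's r of log2 CPM, over 10813 genes. The libraries fall into 4 groups, which share the Dex difference, so high values are common and carry no test. Gata3 was nearest to Lcp2 (0.985), a signalling adaptor of the T cell receptor, and to Plk3 (0.980), which was also among the nearest to Il5 (0.971) and Il3 (0.973). Il13 was nearest to Rai14 (0.985), Il4 to Cyp11a1 (0.950), the steroidogenic side chain cleavage enzyme gene, and Il4ra to Naa16 (0.933).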

How the data were processed

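RNA from 2000 sorted cells per library was amplified and sequenced, per the labels' protocols. The authors deposited 4 tables of whole-number expected counts per gene symbol; RSEM 1.3.3 and mm10 are named in the submitters' processing notes, and the annotation is not given in the sources used here. Reads were not counted by molecular identifier, so counting intervals cover counting error only. Levels are CPM of all counts in a library. Comparisons used edgeR 4.0.16 (R 4.3.3), TMM scaling, a filter on low counts (filterByExpr, minimum count 10, minimum total 15) and the quasi-likelihood test on group means, adjusted by Benjamini-Hochberg over all genes in the fit; the in vitro fit held all 16 libraries and the 2 CHD1 tables were joined for tissue. The fit was also run on simulated data, with the same spread for every gene and changes in KO control alone. That setting lacks a shift like that of the KO Dex libraries, so nothing is concluded from it. DESeq2 1.42.0, other scalings, no filter, a replicate block, fewer libraries and left-out replicates were tried. The genes and lists were chosen with earlier results of these data known. Named beyond the 6 genes were up to 4 called genes of the largest change per role and comparison, and Stat6, Maf, Csf2 and Il1rl1. Scaling by total counts and removal of repeat features were chosen after seeing the data. Same-numbered libraries did not deviate together: over 21 pairs the correlations ran from -0.0803 to 0.145, with 2 over 0.1, so numbers were not taken as pairs.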

Additional observations from a re-analysis of the deposited data

Results flagged for a closer look

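A library far from the rest of its group was found in 10 of 46 sets of a gene and a group of 4, by the gap to the nearest library over the range. For normally distributed values chance gives about 1 in 20. Where 3 libraries are at 0 and 1 is not, the gap over the range is always 1.0, even for a single count. The rate does not hold for such sets, so no excess is read from the 10. In CHD1 cKO CNS, replicate 2 held Il5 at 22.2 CPM (the others 6.52 to 8.0) and Il4ra at 165.0 CPM (50.1 to 65.2), and replicate 3 held Gata3 at 82.2 CPM (65.0 to 67.8). In KO control, replicate 7 held Il4 at 63.5 CPM (34.6 to 38.5), and in WT control, replicate 4 held Il5 at 69.4 CPM (41.5 to 44.0). In GR WT CNS, replicate 4 held Il3 at 3.65 CPM where the others had none. The remaining 4 sets hold 1 library with counts beside 3 at 0: in KO Dex replicate 5, Il5 at 0.224 CPM and Il13 at 0.448 CPM, and in CHD1 cKO dLN, Il5 at 0.194 CPM in replicate 4 and Il13 at 0.827 CPM in replicate 3.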

How the results depend on the processing

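Of the 6 genes, 2 passed in IL-23R KO against WT without Dex. With only the 8 libraries compared in the fit 0 passed, and over the fits that leave out 1 library 0 to 4 passed; DESeq2 called 3, with Il4ra (adjusted p = 0.0131) added. In CHD1 cKO against WT in the dLN, where 0 passed, 1 passed with no filter on low counts, 1 with a replicate block and 0 to 1 with 1 library left out. In KO against WT with Dex, 4 genes were at least 2-fold lower, and 2 with only those 8 libraries, where Il5 and Il13 left the fit. The direction turned for values that never passed: over left-out libraries Il13 in GR cKO ran from -0.53 to 0.42 (0.02 and 0.25 in the other cases that turned). In the CHD1 CNS Il13 ran from -0.08 to 1.32 and Il4ra from -0.18 to 0.59, the lowest without cKO replicate 2, and the value was 0.00 for Gata3 without WT replicate 1, 0.07 scaled by total counts, and -0.69 for Il3 with a replicate block. The block gave Il4ra 1.07 (edgeR adjusted p = 0.0286) in the dLN, with 1 higher and 4 lower of the 27 pathway genes. The share of all genes called with the block is not given here, so nothing is read from those counts. The dLN libraries share only a number, and no block could be had for the IL-23R and GR genotype comparisons, whose groups share no numbers. Called genes numbered 113 by DESeq2 against 74 by edgeR in IL-23R KO without Dex, 115 against 0 in GR cKO, 181 against 1 in CHD1 cKO CNS and 323 against 7 in dLN, where total-count scaling gave 117 higher and 220 lower. With TMM-scaled CPM, 54 of 60 levels stayed within 1 SD and 6 moved. Among tested values of single genes, the direction turned in 8 alternatives, 6 gained a call and 14 lost one. Untested Il4ra values near 0 turned too: Dex in WT cells (0.09 to -0.02) and KO against WT with Dex (0.08 to -0.23) when scaled by total counts, and CNS against dLN (0.09, down to -0.15) without CHD1 WT CNS replicate 2. Depth limits the dLN cytokines and Il5 and Il13 in KO Dex, all at or under 3 counts in most libraries. The cause of these changes was not tested.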
